A study of Mus musculus with 15 samples.

Results

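The Rel homology genes Nfkb1, Nfkb2, Rel, Rela and Relb, which encode the subunits of the transcription factor NF-kB, were followed in RNA immunoprecipitation sequencing (RIP-seq) of ST2 cells, a mouse stromal line from bone marrow. They were taken by symbol, and all 5 were found among the 25239 genes of the deposited tables. All 5 also passed the filter on low counts, as did 17835 genes in all. Cells had been left in medium or given IL-17 at 200 ng/mL for 3 h and were then fixed with 1% formaldehyde. Their lysates were precipitated with an antibody against the RNA-binding protein Arid5a or, as the control, with mouse IgG2b. The 15 libraries formed 4 groups, namely IgG in medium (n = 4), Arid5a in medium (n = 4), IgG with IL-17 (n = 3, numbered 2, 3 and 4) and Arid5a with IL-17 (n = 4). No library of unprecipitated RNA was analysed here, and all groups came from this 1 line. The labels do not say that the replicates were separate cultures, so the p-values below measure the spread between these libraries, which may be technical.

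Library totals ran from 939139 (IgG medium 2) to 5713913 counts, and log2 values of libraries of a group correlated across genes with r from 0.818 to 0.968. IgG medium 2 and IgG IL-17 4 were taken as doubtful, and results are given without them where that changes a call. Arid5a IL-17 4 also stood apart, with a TMM scaling factor of 1.04 against 0.881 to 0.917 in the rest of its group. Without it, 12.8% of all genes were called with IL-17 in the Arid5a RIP, against 5.65% with it. Stromal markers were abundant in sum, with 13248 to 21593 CPM (counts relative to the library total) over 10 genes. In medium their sum was lower in the Arid5a RIP (13248 to 16036 CPM) than in the IgG RIP (17957 to 18931 CPM), without overlap. With IL-17 it overlapped, at 14629 to 21593 CPM in the Arid5a RIP and 15741 to 18992 CPM in the IgG RIP. Col1a1 alone held 5495 to 9846 CPM, while Postn (0 to 12.8 CPM) and Vcam1 (5.62 to 47.2 CPM) were low. The sums of 10 haematopoietic markers (10.2 to 31.1 CPM) and 10 endothelial and epithelial markers (13.4 to 71.9 CPM) were far lower, and no marker was at 0 in every library. With IL-17 the haematopoietic sum was lower without overlap, at 13.2 ± 3.17 (SD, n = 3) against 25.5 ± 4.59 CPM (n = 4) in the IgG RIP and 14.9 ± 2.33 against 26.4 ± 4.73 CPM (n = 4 each) in the Arid5a RIP. The endothelial and epithelial sum stood at 42.9 ± 6.02 against 48.8 ± 17.2 CPM in the IgG RIP and 28.9 ± 19.7 against 58.9 ± 9.74 CPM in the Arid5a RIP. Olfactory and vomeronasal receptor genes (1492), which most cells do not express, held 1408 to 4062 CPM in the Arid5a IL-17 libraries, where replicate 4 was the highest, and 3234 to 4781 CPM in the Arid5a medium libraries. In the IgG RIP they held 1987 to 3090 CPM in medium and 2386 to 3373 CPM with IL-17. The part of these differences in the results below was not tested.

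NF-kB is a dimer of Rel homology proteins, held in the cytoplasm of resting cells by inhibitors of the IkB family. Signals such as TNF, interleukin-1 and IL-17 activate the IkB kinase, the inhibitors are degraded, and dimers such as that of the Nfkb1 product with Rela enter the nucleus and bind kB sites. Rela, Rel and Relb carry transactivation domains. Nfkb1 and Nfkb2 encode precursors that are cut to shorter DNA-binding forms and whose uncut forms act as inhibitors, and the Nfkb2 product pairs with Relb in the non-canonical pathway. In stromal cells the factor drives chemokine and cytokine genes.

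In the RefSeq tables of GRCm38.p6 (mm10), all 5 are protein-coding genes. Nfkb1 (gene ID 18033) lies at chr3:135584655-135691969 and holds the lncRNA model Gm46827 within its bounds. Nfkb2 (18034) lies at chr19:46300994-46312400 and overlaps the lncRNA 4833438C02Rik over 2045 bases and the gene Psd over 316 bases. Since the strand setting of the counting is not given in the sources used here, reads of these neighbours may be counted for Nfkb1 and Nfkb2. Rel (19696) at chr11:23736847-23770969, Rela (19697) at chr19:5637442-5648134 and Relb (19698) at chr7:19606217-19629438 overlap no other model.

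Promoters of the subunit genes are shown because Nfkb2 moved with IL-17 while Rel and Rela did not pass the test, and kB sites are where NF-kB itself binds. The RefSeq promoter table held 5 windows for 3 of the 5 genes (Nfkb2, Rel and Rela). The 250 bases before each start were searched on both strands for 3 kB patterns that overlap one another. The 10-base pattern is GGG, any 2 bases and TTTCC, found in 1.41% of 32851 promoters, the 9-base pattern is GGGNNTTCC (4.98%), and the loose pattern is GGG, any 5 bases and CC (45.8%). Capitals mark matches of either of the first 2 patterns, and each sequence is written 5′ to 3′ on the strand of its gene. Shown are the window before the first of the 3 Nfkb2 starts in that table (chr19:46304487-46304736, plus strand), which lies inside the Nfkb2 gene model and inside 4833438C02Rik, 30 bases around a match before a later Nfkb2 start (chr19:46305695-46305724, plus), the window before the Rel start (chr11:23770970-23771219, minus) and the part of the Rela window that precedes the gene model, 151 bases (chr19:5637291-5637441, plus).
Nfkb2: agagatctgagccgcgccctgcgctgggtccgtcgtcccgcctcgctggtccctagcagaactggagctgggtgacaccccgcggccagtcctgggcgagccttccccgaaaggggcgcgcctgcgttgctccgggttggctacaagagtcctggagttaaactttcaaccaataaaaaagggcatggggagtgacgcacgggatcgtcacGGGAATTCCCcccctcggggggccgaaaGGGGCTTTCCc
Nfkb2 later start: tggtattttcGGGACTTTCCtaagcagcac
Rel: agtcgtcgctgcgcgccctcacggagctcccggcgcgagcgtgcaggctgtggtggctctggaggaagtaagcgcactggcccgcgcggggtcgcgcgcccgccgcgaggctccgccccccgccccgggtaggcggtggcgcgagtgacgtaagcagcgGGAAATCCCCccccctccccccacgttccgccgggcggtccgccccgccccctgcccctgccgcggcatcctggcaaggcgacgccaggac
Rela: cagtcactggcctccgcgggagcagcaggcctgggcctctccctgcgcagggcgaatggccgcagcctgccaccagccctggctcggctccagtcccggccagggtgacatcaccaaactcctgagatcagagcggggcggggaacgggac

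The first Nfkb2 window held GGGGCTTTCC, 11 bases before the start as counted from its first base, and 3 matches of the 9-base pattern, of which those at -39 and -38 overlap each other and that at -10 lies within the 10-base match. A later Nfkb2 window held GGGACTTTCC at -225, and the remaining Nfkb2 window held neither of the first 2 patterns. The start that follows that remaining window is chr19:46305695, and GGGACTTTCC lies just downstream of it. Rel held 1 match of the 10-base pattern, on the opposite strand, at -91, printed as GGAAATCCCC. The Rela window held 0 matches of the first 2 patterns and 4 of the loose one, against 9 in the first Nfkb2 window. These are matches of letters, so they show no binding, and both a gene that was called with IL-17 (Nfkb2) and one that was not (Rel) held them.

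Levels of the 5 mRNAs were compared per length, in the deposited FPKM (fragments scaled to gene length and library size). Rela and Nfkb2 led in medium, Nfkb1 came next, and Rel and Relb were lowest. In IgG medium libraries the FPKM were 22.0 ± 6.91 (SD, n = 4) for Nfkb2, 21.4 ± 6.35 for Rela, 7.43 ± 2.48 for Nfkb1, 4.49 ± 1.41 for Rel and 3.77 ± 2.32 for Relb. In Arid5a medium libraries Rela stood at 24.7 ± 4.11 FPKM (n = 4), Nfkb2 at 17.1 ± 2.65, Nfkb1 at 10.04 ± 0.895, Rel at 4.17 ± 0.266 and Relb at 4.16 ± 0.664. Rel and Relb therefore did not differ beyond their spread in medium, nor did Nfkb2 and Rela in the IgG libraries.

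With IL-17 the order changed at 2 places. Nfkb2 was above Rela in 7 of 7 IL-17 libraries and in 1 of 8 medium libraries (IgG medium 2), and Relb was above Rel in 7 of 7 and in 2 of 8. In IgG IL-17 libraries the FPKM were 35.2 ± 6.53 (n = 3) for Nfkb2, 26.2 ± 5.47 for Rela, 20.04 ± 1.88 for Nfkb1, 13.01 ± 4.91 for Relb and 4.65 ± 1.305 for Rel. In Arid5a IL-17 libraries they were 39.3 ± 5.66 (n = 4) for Nfkb2, 25.05 ± 4.34 for Rela, 18.7 ± 1.46 for Nfkb1, 9.58 ± 1.56 for Relb and 4.31 ± 0.441 for Rel. Nfkb1 was below Nfkb2 in 15 of 15 libraries. The plot of FPKM by library shows the crossings.

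**Figure D1:**
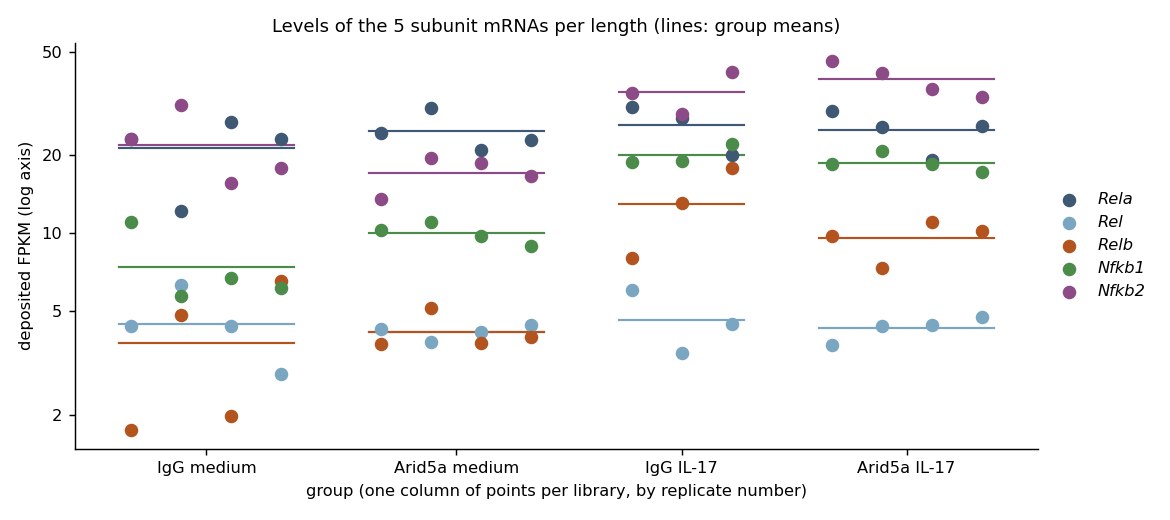
Deposited FPKM (log axis) of the 5 subunit mRNAs, with 1 column of points per library ordered by replicate number within the 4 groups, and lines at the group means. Nfkb2 lies above Rela in all 7 IL-17 libraries, Relb lies above Rel in the same 7, and Rel stays between 2.87 and 6.31 FPKM.

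The transcript length that counts and FPKM imply for each gene was nearly constant, so the rise in FPKM did not come with a change in the length assigned. Over the 15 libraries its highest value exceeded the lowest by a factor of 1.04 for Nfkb1, 1.05 for Nfkb2, 1.02 for Rel, 1.06 for Rela and 1.07 for Relb.

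The comparison of IL-17 with medium, made within each precipitation, asks how the recovered mRNAs responded to the cytokine. The mRNAs of Nfkb1 and Relb rose with IL-17 in both precipitations, and that of Nfkb2 rose in the Arid5a precipitate. Rela and Rel did not pass the test in either. In the Arid5a RIP 3 of 5 subunits were called higher by edgeR's quasi-likelihood test at a Benjamini-Hochberg adjusted p below 0.05 over all genes tested, where 4.84% of all genes were called higher. In the IgG RIP 2 of 5 were called higher, where 0.258% of all genes were. Levels are TMM-scaled CPM, given with their SD, and each log2 fold is followed by its standard error from the fit. They are shares of the RNA in a library: fewer cells and less RNA per cell cannot be told apart, nor can a change of the mRNA in the cells and a change in how much of it was precipitated.

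Nfkb1 encodes the precursor of the DNA-binding partner of Rela. Its CPM in IgG medium libraries 1 to 4 were 44.1, 23.6, 28.9 and 23.4, and in IgG IL-17 libraries 2 to 4 they were 71.5, 71.8 and 92.4. In Arid5a medium libraries 1 to 4 they were 38.8, 38.4, 33.7 and 33.1, and in Arid5a IL-17 libraries 1 to 4 they were 80.7, 89.1, 77.9 and 64.6. Every IL-17 library was above every medium library of its precipitation, as for 4.27% of all genes in the IgG RIP and 10.7% in the Arid5a RIP, with means of 78.6 ± 11.9 (n = 3) against 30 ± 9.77 (n = 4) in the IgG RIP and 78.1 ± 10.2 against 36.01 ± 2.99 (n = 4 each) in the Arid5a RIP. The log2 fold was 1.34 ± 0.22 in the IgG RIP (edgeR adjusted p = 0.000632) and 1.12 ± 0.20 in the Arid5a RIP (adjusted p = 0.000613). The IgG call ended when only the libraries compared were fitted (1.37, adjusted p = 0.0789), and the Arid5a call with limma on log2(FPKM + 0.1) (0.89, adjusted p = 0.0541).

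Nfkb2 encodes the precursor that is cut in the non-canonical pathway. Its CPM were 37.5, 49.6, 47.6 and 45.6 in Arid5a medium libraries 1 to 4 and 147, 130, 111 and 91.7 in Arid5a IL-17 libraries 1 to 4. In IgG medium libraries 1 to 4 they were 67.5, 92.1, 49.8 and 49.96, and in IgG IL-17 libraries 2 to 4 they were 97.6, 79.5 and 127. In the Arid5a RIP every IL-17 library was above every medium library, as for 10.7% of all genes. In the IgG RIP the medium library 2, the shallowest, with 82 Nfkb2 counts, lay above IL-17 library 3. Nfkb2 rose in the Arid5a RIP, from 45.05 ± 5.31 to 120 ± 23.7 CPM (n = 4 each), a log2 fold of 1.41 ± 0.20 (edgeR adjusted p = 1.73e-05). In the IgG RIP it stood at 64.9 ± 19.97 (n = 4) and 101.3 ± 23.9 (n = 3), and the log2 fold of 0.68 ± 0.21 did not pass over all genes (edgeR adjusted p = 0.159). Without IgG medium 2 the fold was 0.85 and passed (edgeR adjusted p = 0.0355).

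Relb encodes the subunit that pairs with the Nfkb2 product, and its mean CPM was the lowest of the 5 in each group. Its counts were low, from 9 to 39 in medium and from 68 to 122 with IL-17. In IgG medium libraries 1 to 4 its CPM were 3.53, 10.1, 4.33 and 12.5, and in IgG IL-17 libraries 2 to 4 they were 15.6, 24.9 and 37.8. In Arid5a medium libraries 1 to 4 they were 7.17, 9.09, 6.62 and 7.51, and in Arid5a IL-17 libraries 1 to 4 they were 21.2, 15.7, 23.4 and 19.3. Every IL-17 library was above every medium library of the same precipitation, as for 4.27% of all genes in the IgG RIP and 10.7% in the Arid5a RIP. The IgG groups were the more spread.

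Means of Relb were 7.62 ± 4.37 (n = 4) and 26.1 ± 11.1 CPM (n = 3) in the IgG RIP and 7.60 ± 1.06 and 19.9 ± 3.24 CPM (n = 4 each) in the Arid5a RIP. The log2 fold was 1.82 ± 0.43 in the IgG RIP (edgeR adjusted p = 0.0366) and 1.39 ± 0.39 in the Arid5a RIP (adjusted p = 0.0284). Both calls were close to the threshold. Leaving out any 1 of Arid5a medium 1 to 4 or Arid5a IL-17 1 to 3 ended the Arid5a call (adjusted p from 0.0597 to 0.102), and leaving out IgG medium 1 or 3, IgG IL-17 3 or 4, Arid5a medium 4 or Arid5a IL-17 1, 2 or 3 ended the IgG call (up to 0.228). The Arid5a fold was 1.09 with TMM factors from well-expressed genes (adjusted p = 0.136).

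Rela encodes the main transactivating partner in the canonical dimer. Its CPM were 57.4, 30.3, 72.6 and 54.8 in IgG medium libraries 1 to 4 and 73.7, 64.4 and 52.6 in IgG IL-17 libraries 2 to 4. They were 58.0, 66.5, 45.5 and 53.3 in Arid5a medium libraries 1 to 4 and 79.9, 68.1, 49.8 and 60.6 in Arid5a IL-17 libraries 1 to 4. The groups overlapped in both precipitations. The log2 fold was 0.21 ± 0.23 in the IgG RIP (edgeR adjusted p = 0.800) and 0.21 ± 0.21 in the Arid5a RIP (adjusted p = 0.548). The 95% interval in the Arid5a RIP ran from -0.20 to 0.63, and so it allows a rise of up to 1.55-fold.

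Rel encodes c-Rel, a transactivating subunit best known from lymphoid cells. Its CPM were 32.2, 48.3, 35.0 and 20.2 in IgG medium libraries 1 to 4 and 42.4, 24.2 and 34.5 in IgG IL-17 libraries 2 to 4. They were 29.97, 24.4, 26.5 and 30.3 in Arid5a medium libraries 1 to 4 and 30.2, 35.3, 34.8 and 33.1 in Arid5a IL-17 libraries 1 to 4. The groups overlapped in both precipitations, in the Arid5a RIP by less than 1 CPM. The log2 fold was 0.04 ± 0.27 in the IgG RIP (edgeR adjusted p = 0.981) and 0.26 ± 0.25 in the Arid5a RIP (adjusted p = 0.539), with a 95% interval from -0.24 to 0.76 in the latter. The plot of CPM by group shows the 5 genes side by side.

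**Figure D2:**
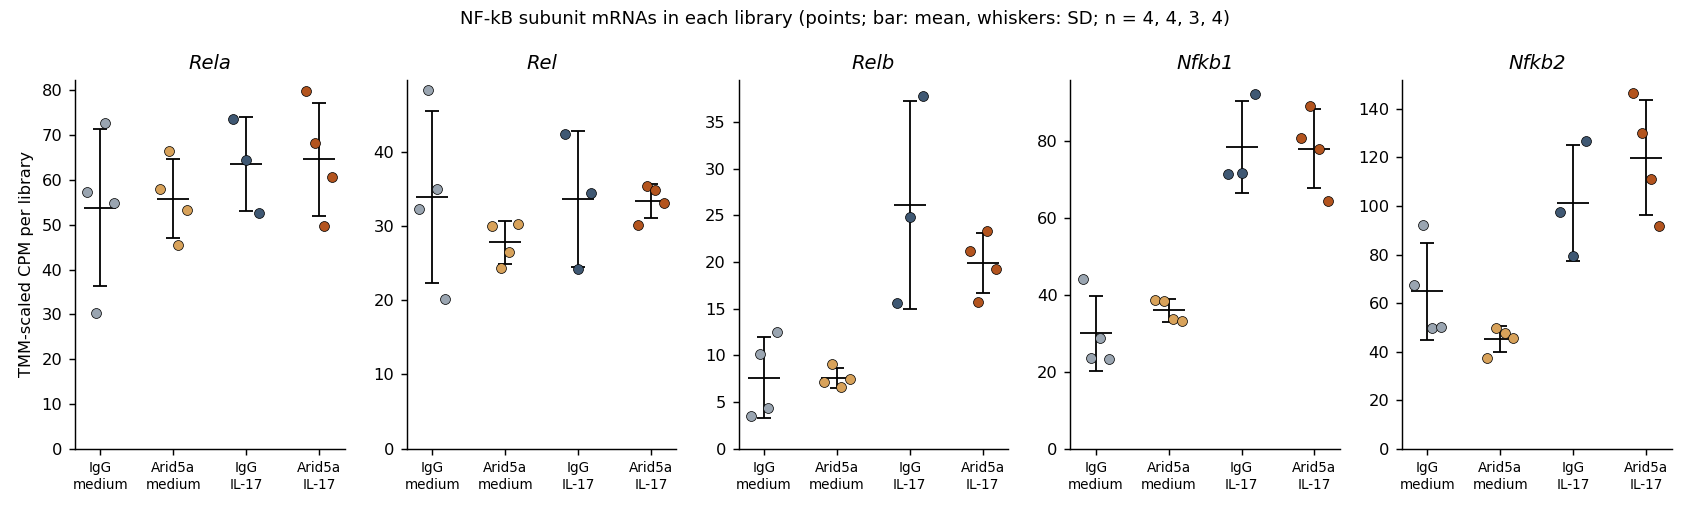
TMM-scaled CPM (linear axes from 0, a scale for each gene) of the 5 subunit mRNAs in each library of the 4 groups, with bars at the means and whiskers of 1 SD (n = 4, 4, 3 and 4). Nfkb1 and Relb have no medium point above an IL-17 point of the same precipitation, IgG medium 2 reaches 92.1 for Nfkb2, and Rela and Rel overlap in all groups.

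A fold averaged over both precipitations uses all 15 libraries and was added after the data were seen. Nfkb1 was higher with IL-17 by 1.23 ± 0.15 (log2, edgeR adjusted p = 6.90e-07), Nfkb2 by 1.04 ± 0.14 (7.66e-06) and Relb by 1.61 ± 0.29 (0.000741). By this rule 2.6% of all genes were higher. Rela stood at 0.21 ± 0.15 (edgeR adjusted p = 0.517, interval from -0.10 to 0.52) and Rel at 0.15 ± 0.18 (0.737, interval from -0.22 to 0.52). These intervals lie below the folds of the called subunits, but the differences between genes were not tested.

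The scale of the folds within the Arid5a RIP depended on the normalisation. With TMM factors the 5394 well-expressed genes (mean log2 CPM no lower than 5) had a median log2 fold of 0.30 in that comparison, against -0.12 over all genes, while in the IgG RIP it was -0.04. Actb was itself higher in the Arid5a RIP with IL-17 (0.43 ± 0.12, edgeR adjusted p = 0.0247), while Gapdh was not called there (0.09 ± 0.13, edgeR adjusted p = 0.685). With factors from the well-expressed genes alone the folds there were 0.81 for Nfkb1 and 1.09 for Nfkb2, which still passed, and -0.09 for Rela and -0.04 for Rel, which turned below 0. Nfkb1 and Nfkb2 thus rose in the Arid5a RIP under each of the scaling factors tried, and no direction can be given for Rela or Rel. When Arid5a IL-17 4 was the only IL-17 library kept in that RIP, the folds were 0.84 for Nfkb1, 1.02 for Nfkb2 and 1.34 for Relb. Their spread then comes from the other groups, and 0.0596% of all genes were called, so the lost calls say little.

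Ratios of counts within a library do not depend on any scaling factor. The log2 ratio of Nfkb1 to Rela ran from -1.33 to -0.36 in the 8 medium libraries and from -0.04 to 0.81 in the 7 IL-17 libraries, with no overlap. The ratio of Relb to Rela lay between -3.02 and -2.78 in the Arid5a medium group and between -2.12 and -1.09 in the Arid5a IL-17 group. In the IgG RIP it spanned -4.07 to -1.58 and -2.24 to -0.48, which overlap. For Nfkb2 to Rela the Arid5a RIP gave -0.63 to 0.07 in medium and 0.60 to 1.16 with IL-17. In the IgG RIP that ratio overlapped, from -0.54 to 1.603 and from 0.30 to 1.27, the highest medium value being that of IgG medium 2. As a description, since these 3 genes are the ones called with IL-17, Nfkb1, Nfkb2 and Relb held of all counts on the 5 genes 43.6% to 61.5% in IgG medium, 48.7% to 55.0% in Arid5a medium, 61.4% to 74.7% in IgG IL-17 and 65.2% to 71.5% in Arid5a IL-17 libraries. The CPM summed over the 5 genes was 190 ± 20.7 (n = 4), 172 ± 11.6 (n = 4), 303 ± 39.7 (n = 3) and 316 ± 40.2 (n = 4) in the same order.

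The comparison of the Arid5a with the IgG precipitate asks which mRNAs the Arid5a antibody enriched. No subunit was called in medium, with IL-17, or in the difference between these by edgeR at an adjusted p below 0.05, where 0.628%, 0.0673% and 0.976% of all genes were called. At an unadjusted p below 0.05, Nfkb2 was the only subunit in medium and in the difference, and there was none with IL-17. By p, Nfkb2 ranked 1288 of 17835 genes in medium and 1428 in the difference, so many other genes passed as well. DESeq2 called 0 subunits in these 3 comparisons, where it called 6.9%, 0.519% and 2.57% of the genes it gave an adjusted p, which Rel and Relb lacked in medium. By limma voom 0 subunits were called too, with 0.673%, 3.2% and 9.86% of all genes called.

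In medium, Nfkb2 stood lower in the Arid5a than in the IgG precipitate, with all 4 Arid5a libraries below all 4 IgG libraries, a separation that 4.05% of all genes showed. The log2 fold was -0.49 ± 0.20 (edgeR adjusted p = 0.289). The remaining subunits overlapped, with log2 folds of 0.22 ± 0.21 for Nfkb1, -0.24 ± 0.25 for Rel, 0.011 ± 0.21 for Rela and 0.06 ± 0.42 for Relb. Their intervals allow an enrichment of up to 1.57-fold for Nfkb1, 1.356-fold for Rela, 1.21-fold for Rel and 1.88-fold for Relb. The well-expressed genes had a median log2 fold of -0.19 in this comparison.

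With IL-17, all 5 genes overlapped between the antibodies. Of all genes, 5.3% were higher and 4.39% lower in the Arid5a libraries without overlap, so the overlap of these 5 says little. The log2 folds were 0.25 ± 0.21 for Nfkb2, -0.0032 ± 0.21 for Nfkb1, 0.015 ± 0.22 for Rela, -0.02 ± 0.27 for Rel and -0.38 ± 0.40 for Relb, with edgeR adjusted p from 0.762 to 0.998. The intervals ran from -0.43 to 0.43 for Nfkb1 and from -0.44 to 0.47 for Rela, and were widest for Relb, from -1.18 to 0.43.

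The difference between these folds is also the difference between the IL-17 responses of the precipitates. It was 0.74 ± 0.29 for Nfkb2 (edgeR adjusted p = 0.190, interval from 0.15 to 1.32), -0.22 ± 0.30 for Nfkb1, 0.22 ± 0.37 for Rel, 0.0041 ± 0.31 for Rela and -0.43 ± 0.58 for Relb. Thus Nfkb2, called with IL-17 in the Arid5a RIP alone, was not shown to respond differently in the 2 precipitates over all genes tested. The well-expressed genes had a median of 0.34 in this difference, beside which the Nfkb2 value stands.

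**Figure D3:**
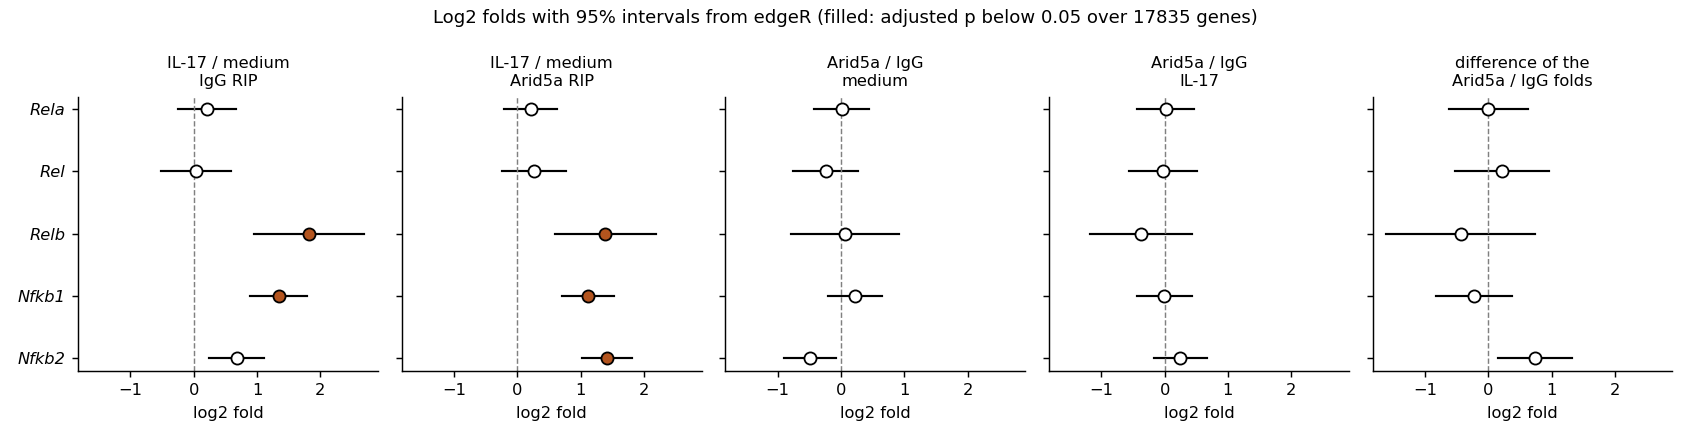
Log2 folds (x axis) of the 5 subunits with 95% intervals in the 5 comparisons, from the edgeR fit over 15 libraries, where filled points had an adjusted p below 0.05 over 17835 genes. The filled points are Relb and Nfkb1 in the IgG RIP and Relb, Nfkb1 and Nfkb2 in the Arid5a RIP, all with IL-17 against medium, and the 15 antibody points are open.

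The other genes of the pathway were counted in 2 lists, each set beside all genes. Of 38 signalling genes and inhibitors 37 were tested (Nfkbid had at most 14 counts). With IL-17, 5 were called higher in the Arid5a RIP and 1 in the IgG RIP, with none lower. Of all genes, 4.84% and 0.258% were called higher and 0.813% and 0.235% lower. At the latter shares, none lower says little about 37 genes. The median log2 fold was 0.42 against -0.12 over all genes in the Arid5a RIP and 0.24 against 0.00324 in the IgG RIP. Nfkbiz, an atypical IkB that works as a coactivator, rose from 28.8 ± 7.42 to 111 ± 12.7 CPM in the Arid5a RIP (n = 4 each; log2 fold 1.94 ± 0.20) and from 33.0 ± 4.78 (n = 4) to 89.7 ± 17.1 CPM (n = 3) in the IgG RIP (1.48 ± 0.21). Nfkbia, the IkB that NF-kB itself induces, rose in the Arid5a RIP from 26.7 ± 7.38 to 98.2 ± 13.7 CPM (1.87 ± 0.22), and in the IgG RIP its fold was 0.75 ± 0.24 (edgeR adjusted p = 0.173).

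Tnfaip3, a ubiquitin-editing inhibitor (0.96 ± 0.20), Chuk, an IkB kinase subunit (0.61 ± 0.18), and Ripk1, a kinase of the TNF receptor complex (0.59 ± 0.18), were the remaining calls in the Arid5a RIP. Chuk and Ripk1 were close to the threshold, with edgeR adjusted p of 0.0420 and 0.0425. Ikbkb, the other catalytic kinase subunit, stood at 0.35 ± 0.24, Map3k14, the kinase of the non-canonical pathway, at -0.31 ± 0.33 and Bcl3, an atypical IkB, at 0.56 ± 0.62, and none of these passed. In the IgG RIP Chuk was lower with IL-17, at 64.6 ± 7.56 CPM (n = 3) against 73.9 ± 11.9 CPM in medium (n = 4). Tnfaip3 stood there at 79.1 ± 12.1 against 56.1 ± 21.8 CPM and Ripk1 at 70.3 ± 7.24 against 58.3 ± 14.1 CPM. The count of calls in the Arid5a RIP moved with the settings, to 2 with factors from well-expressed genes (where 0.645% of all genes were higher). It was 12 when only the libraries compared were fitted (12.2% of all genes). It was 12 without IgG medium 2 and IgG IL-17 4 together (9.3% of all genes), 9 without the first alone (7.75%) and 8 without the second alone (6.6%), so the share over all genes rose with it. Leaving out any 1 of Arid5a medium 1 to 4 or Arid5a IL-17 1 to 3 left 3. The highest Arid5a count under any setting was 16, and the highest share over all genes was 18.9% (voom). In the IgG RIP the count was 2 without IgG IL-17 3. It differed from 1 in 6 of 28 settings and reached 3.

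Of 42 genes known as NF-kB targets 28 were tested. Cxcl5 and C3, at no more than 2.21 and 2.89 CPM in medium, passed the filter on low counts only through their IL-17 libraries. The filter thus favoured a rise of such genes, and the counts and medians of this list are descriptions. With IL-17, 12 rose in the Arid5a RIP and 7 in the IgG RIP, where 4.84% and 0.258% of all genes were higher. None was lower, which says little where 0.813% and 0.235% of all genes were lower. The median log2 fold of the targets was 0.59 against -0.12 over all genes in the Arid5a RIP. In the IgG RIP it was 0.32 against 0.00324. The neutrophil chemokine Cxcl5 had the largest fold, 6.05 ± 0.39 in the Arid5a RIP and 5.24 ± 0.41 in the IgG RIP, from levels near 1 CPM in medium. Cxcl1 rose by 4.36 ± 0.28 and 3.89 ± 0.28, the monocyte chemokine Ccl2 by 3.17 ± 0.18 and 2.47 ± 0.19, and the death receptor gene Fas by 3.05 ± 0.28 and 2.23 ± 0.29. Zc3h12a, which encodes the ribonuclease Regnase-1, rose by 2.79 ± 0.26 and 1.75 ± 0.27, and the complement gene C3 by 2.58 ± 0.58 and 2.68 ± 0.65. The called subunits had folds from 1.12 to 1.41 in the Arid5a RIP, below those of these 6 targets there, and of 1.34 and 1.82 in the IgG RIP, where Zc3h12a stood between them.

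Ptgs2 (1.98 ± 0.30), Csf1 (0.65 ± 0.15), Sod2, Vcam1 and Myc rose in the Arid5a RIP and did not pass in the IgG RIP, but none of these 5 was called in the difference between the precipitates. Csf1 and Vcam1 also belong to the stromal markers, of which 6 of 10 rose with IL-17 in the Arid5a RIP, where 4.84% of all genes did. The marker list thus moved with the target genes in that RIP. In the IgG RIP 0 of the 10 rose, which says little where 0.258% of all genes did. Il6 was not tested, with at most 8 counts in a library.

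Ccl7, a monocyte chemokine, was the only target called between the antibodies. It stood at 65.6 ± 18.8 CPM in IgG medium and 33.3 ± 2.11 CPM in Arid5a medium libraries (n = 4 each), a log2 fold of -0.94 ± 0.19 (edgeR adjusted p = 0.0171), in a comparison with 0.572% of all genes lower. Its fold between the antibodies differed between treatments by 1.53 ± 0.26 (adjusted p = 0.0148; 0.869% of all genes were called higher in this difference), the same sign as the uncalled value of Nfkb2. The call in medium ended without IgG medium 2 or 3 or Arid5a medium 2, 3 or 4 alone, and that in the difference without Arid5a IL-17 1. Both calls also ended with upper-quartile factors, with library totals and on both FPKM scales, and the medium call when only the libraries compared were fitted or without IgG medium 2 and IgG IL-17 4 together. With factors from well-expressed genes 0 genes of either list were called between the antibodies.

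**Figure D4:**
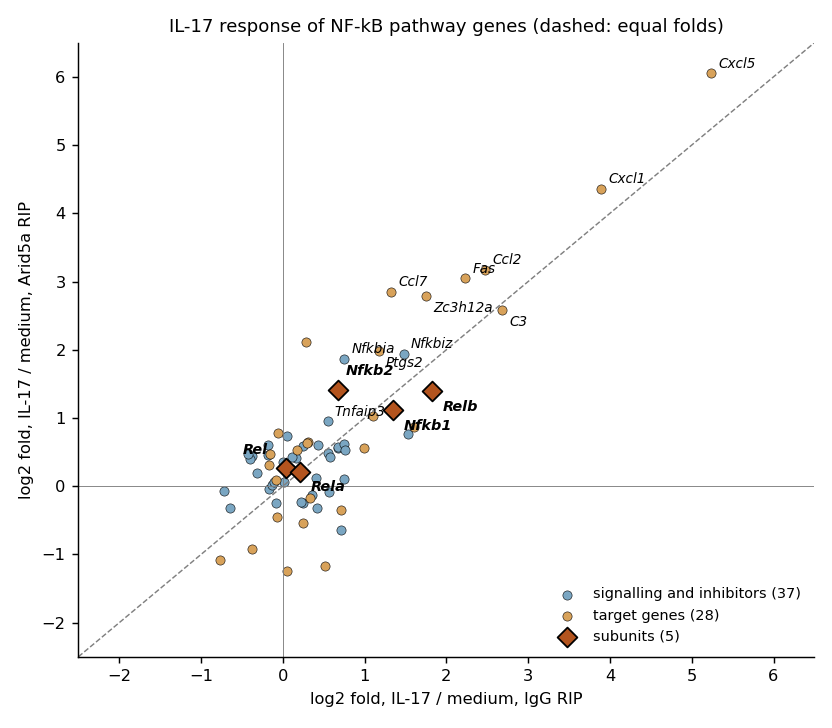
Log2 folds of IL-17 over medium in the IgG RIP (x axis) and the Arid5a RIP (y axis) for 37 signalling genes, 28 target genes and the 5 subunits, with a dashed line of equal folds. Nfkb1, Nfkb2 and Relb lie between 0.68 and 1.82 on both axes, Rel and Rela between 0.04 and 0.26, and Cxcl5 and Cxcl1 lie farthest out.

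Genes whose pattern over the 15 libraries was most like that of each subunit were found among 13750 genes by the root mean square difference of log2 CPM, each gene centred on its own mean. Nearest to Nfkb1 were Pmepa1 (0.22), Nfkbie (0.23), an IkB gene, and Creb3l1 (0.26). Nearest to Nfkb2 were the matrix gene Tnc (0.22), the phosphate transporter gene Slc20a1 (0.24) and Stx6 (0.25). Relb had no close neighbour, with Cebpd, a C/EBP transcription factor gene, at 0.38, Ets2 at 0.45 and Denr at 0.51. For Rel and Rela, whose own deviations were small (0.30 and 0.33), near genes were Zfp326, Slc6a8 and Ppp2r1b and, for Rela, Wdr18 and Sipa1l2, at 0.17 to 0.19. Among the subunits the closest pair was Nfkb1 and Nfkb2 (0.44) and the farthest Rel and Relb (0.93). All of these values come from the same 15 libraries, which differ in depth, and the distances are descriptions.

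**Figure D5:**
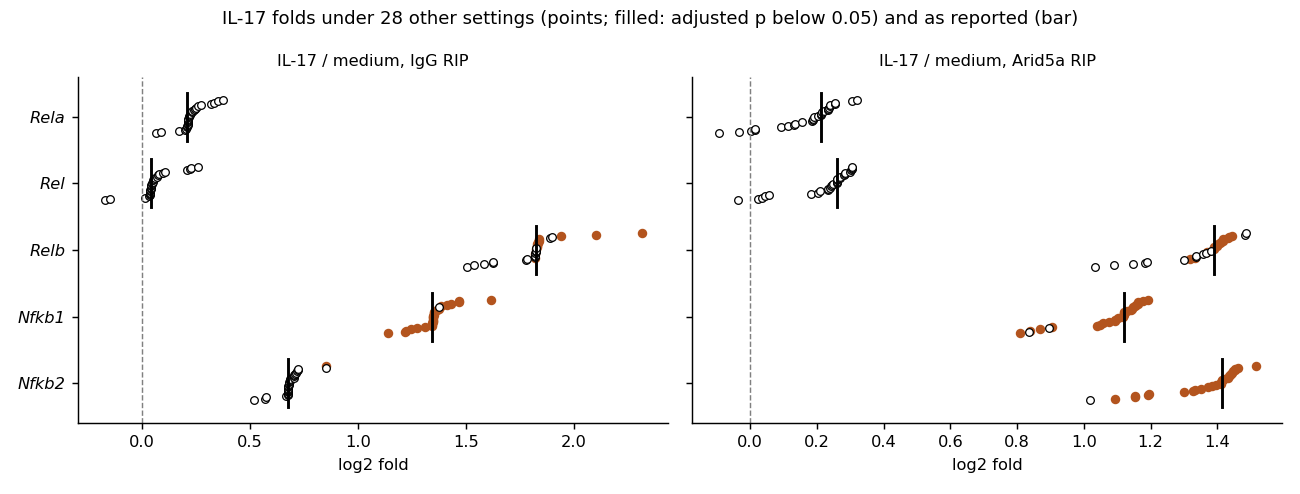
Log2 folds of IL-17 over medium for the 5 subunits under 28 other settings (points, filled where the adjusted p was below 0.05), with a bar at the value given above, for the IgG RIP (left) and the Arid5a RIP (right). Nfkb1, Nfkb2 and Relb stay above 0 under every setting drawn, and Rela and Rel cross or approach 0. Relb is filled at 13 settings in the IgG RIP and 15 in the Arid5a RIP, and Nfkb2 at 1 and 27.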

How the data were processed

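RNA from RIPs of ST2 cells was sequenced with the SMART-Seq Stranded kit, per the labels' protocols. The authors deposited expected counts per gene, not normalised, and FPKM, scaled to gene length and mapped total. Per the submitters' processing notes, the tools were RSEM 1.3.1, STAR 2.7.9, R 4.3.0 and DESeq2 1.36.0, and the build mm10; the annotation and strand setting are not given in the sources used here. The subunits, the lists and the tests were chosen with earlier results of these data known.

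Rounded counts were fitted with edgeR 4.0.16 (R 4.3.3): filterByExpr by group, TMM factors, robust quasi-likelihood fit of 4 group means over 15 libraries, with 5 comparisons and Benjamini-Hochberg adjustment over 17835 genes. Genes were called at an adjusted p below 0.05. FPKM were used for levels between genes and, as log2(FPKM + 1) and log2(FPKM + 0.1), with limma 3.58.1 as alternatives. The latter understate folds of low genes. Named genes were the 5 subunits, up to 8 called members of each pathway list per comparison by smallest p, a fixed set of always-named genes (Nfkbia, Nfkbiz, Bcl3, Tnfaip3, Ikbkb, Chuk, Map3k14, Ccl2, Cxcl1, Il6, Arid5a, Gapdh and Actb) and the 3 nearest patterns per subunit, of which 1 is not reported here. Sod2, Vcam1, Myc and Nfkbid fall outside this rule and were named after their values were seen.

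Other settings were upper-quartile factors, library totals, TMM factors from well-expressed genes, DESeq2 1.42.0, voom with quality weights, no filter, a stricter filter (each library of some group at 10 counts or more), a block for the replicate number, fits of only the compared libraries, each library left out and the joint removal of doubted libraries. The procedure was tested on simulated data. Of the symbols, 25041 (99.22%) matched the RefSeq table of GRCm38.p6, which gave positions and promoters. Protein sequences and promoters of Nfkb1 and Relb were not used here.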

Additional observations from a re-analysis of the deposited data

Results flagged for a closer look

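Among 22 named genes, 66 groups of 4 libraries were searched for a library whose gap to the nearest of the others took up most of the range of the group. Such a gap was found in 5 of them, and chance alone gives about 1 in 20 groups; none concerned a subunit gene. Nfkbia stood at 15.7 CPM in Arid5a medium 2, against 29.2 to 31.3 CPM in the other three libraries of the group, and at 119 CPM in Arid5a IL-17 1, against 90.4 to 92.7 CPM. Chuk was low in Arid5a IL-17 4, at 64.0 CPM, where the other three libraries held 89.6 to 94.1 CPM. Ccl2 stood at 31.0 CPM in Arid5a medium 2 and at 41.0 to 41.7 CPM in the rest of that group. Fas was high in Arid5a IL-17 2, at 78.8 CPM, against 61.4 to 63.1 CPM.

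The response of Ccl7 to IL-17 differed between the precipitates, with a log2 difference of 1.53 in the edgeR fit, larger in the Arid5a RIP. The call ended with upper-quartile factors, library totals, well-expressed factors, on both FPKM scales, without Arid5a IL-17 1 and without Arid5a IL-17 1, 2 and 3 together.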

How the results depend on the processing

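With IL-17 in the Arid5a RIP, 3 subunits were called. Limma on log2(FPKM + 0.1) called 1, and 2 to 3 were called with single libraries left out. Relb lost its call there in 13 of 28 other settings, among them TMM factors from well-expressed genes. Removal of Arid5a IL-17 1, 2 and 3 together leaves 1 library there, and the folds are given above. With IL-17 in the IgG RIP, 2 were called; 1 was called by voom, by limma on log2(FPKM + 1) and on log2(FPKM + 0.1), without IgG medium 2 and IgG IL-17 4, and without Arid5a IL-17 1, 2 and 3, and 0 when only the libraries compared were fitted. Leaving out single libraries gave 1 to 3. Between the antibodies and in the difference 0 subunits were called under each setting run. The causes of these changes were not tested.

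Pairing by replicate number was not seen: deviations of same-numbered libraries from their group means correlated with r from -0.22 to 0.20 (median -0.02, 21 pairs, 2 above 0.1). Libraries of other numbers gave r from -0.13 to 0.22 (median 0.0071, 63 pairs, 7 above 0.1). With so few libraries per group, these correlations cannot exclude that equal replicate numbers mark shared cultures. With the number as a block, 3 subunits were called in the Arid5a RIP and 1 in the IgG RIP, where Relb had an adjusted p of 0.0764.

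Some signs turned, in values that were not called. For Arid5a against IgG in medium these were Rela (-0.13 by voom, -0.14 without IgG medium 2 and IgG IL-17 4, -0.13 to 0.18 with single libraries left out) and Relb (-0.23 to 0.55 with single libraries left out). With IL-17, Rela was at -0.10 with upper-quartile factors, -0.12 with totals, -0.15 with well-expressed factors, -0.036 by DESeq2, -0.14 by voom, -0.026 with the stricter filter, -1.54e-05 with only the libraries compared, -0.037 with the replicate block, -0.059 and -0.061 on the FPKM scales, -0.072 without the IgG pair and -0.077 without the Arid5a trio. Nfkb1 was at 0.12 by voom, 0.035 with no filter and 0.15 without the IgG pair; Relb at 0.033 by voom and 0.015 without the IgG pair; Rel at 0.017 with no filter, 0.013 with the replicate block and 0.015 without the IgG pair; and Nfkb2 at -0.14 without the Arid5a trio. With single libraries left out, Rela ran from -0.10 to 0.16, Nfkb1 from -0.073 to 0.13 and Rel from -0.20 to 0.22.

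In the difference, Rela was at -0.25 with upper-quartile factors, -0.31 with totals, -0.34 with well-expressed factors, -0.087 by DESeq2, -0.0089 by voom, -0.057 with the stricter filter, -0.045 with the replicate block, -0.30 and -0.32 on the FPKM scales, -0.098 without the Arid5a trio and -0.16 to 0.16 with single libraries left out. Rel was at -0.041 with upper-quartile factors, -0.083 with totals, -0.12 with well-expressed factors and -0.017 and -0.024 on the FPKM scales, and Nfkb1 at 0.0069 without the IgG pair. With IL-17 in the Arid5a RIP, Rela was at -0.035 with totals and -0.093 with well-expressed factors, and Rel at -0.036 with the latter; in the IgG RIP Rel ran from -0.17 to 0.26 with single libraries left out.

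The called targets in the Arid5a RIP fell from 12 to 6 on the FPKM scales and without the Arid5a trio. Relb had the fewest counts of the 5 in IgG medium 2, with 9.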
